A study of Mus musculus with 12 samples.

Results

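The 4 5hmC libraries of differentiated mouse helper T cells were compared as a pair of sides: those labelled iTreg and Th17 against those labelled Th1 and Th2. These 4 libraries of the 12 in the series were chosen by their labels alone. Each library is a DNA immunoprecipitation, which enriches sheared single-stranded DNA with an antibody against 5-hydroxymethylcytosine (5hmC) before sequencing. Each cell type gave 1 library, so a side holds 2 different cell types and not 2 replicates. The series also holds a naive 5hmC library, 5mC libraries of all 5 cell types, and IgG and input libraries of Th17 cells. The design text names CD2(Cre)Tet2(f/f) mice, in which a Cre driven by CD2 acts on Tet2 in lymphocytes, and wild-type littermates, on a mixed background. Which genotype, age, culture medium or number of animals stood behind a library is not given in the sources used here.

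As background, iTreg and Th17 cells are both commonly derived from naive CD4+ T cells in the presence of TGF-beta, while interleukin 12 and interleukin 4 drive the Th1 and Th2 fates. Tet enzymes oxidise 5-methylcytosine (5mC) to 5hmC, a step in removing methylation, and 5hmC is often found over active genes and enhancers. T-bet (Tbx21) directs Th1 cells, Gata3 Th2 cells and Foxp3 regulatory T cells, and Il10 encodes a cytokine that restrains immune responses. Whether TGF-beta was in these cultures is not stated in the labels, so the sides are named by their cell types.

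The signal is a mean per gene area, rounded to 1 decimal, and its scaling between libraries is not stated. The sides were compared in the 22875 gene areas of at least 3000 bp. Below, "higher" and "lower" mean that both libraries labelled iTreg and Th17 lay above, or below, both of Th1 and Th2. Differences are side means of log2(signal + 0.2), which understate changes of low gene areas. The library labelled Th17 had the lowest median signal, 12.2, against 13.5 to 13.9 in the other 3. The naive 5hmC library, on neither side, had a higher median, 16.2. Its upper quartile was 27.9, against 18.2 to 21.4 in the compared libraries. Positions above or below naive cells are given below on the values as deposited. The part of this higher naive level in them was not tested. Across gene areas, as a description, Spearman's rho was 0.907 between Th1 and Th2 and 0.865 between the libraries labelled iTreg and Th17. The library labelled iTreg was nearer to Th1 and Th2, with 0.903 and 0.902, than to its own partner. Il17a and Il17f, which mark Th17 cells, had their most signal in the library labelled iTreg. Both names lie on the same side, so an exchange of these labels would leave the side differences as they are.

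Foxp3 carried more 5hmC, and Tbx21, Il10 and Batf3 less, in the libraries labelled iTreg and Th17 than in those of Th1 and Th2. Foxp3, Tbx21 and Batf3 are shown with the 250 bases before a start that RefSeq gives on GRCm38.p6, the first of 2 starts for Foxp3, because 5mC and 5hmC in T cells lie mostly at CG dinucleotides, which are in capitals. The windows are chrX:7579426-7579675 on the plus strand for Foxp3, chr11:97115332-97115581 on the minus strand for Tbx21 and chr1:191098164-191098413 on the plus strand for Batf3, each read 5′ to 3′.
Foxp3: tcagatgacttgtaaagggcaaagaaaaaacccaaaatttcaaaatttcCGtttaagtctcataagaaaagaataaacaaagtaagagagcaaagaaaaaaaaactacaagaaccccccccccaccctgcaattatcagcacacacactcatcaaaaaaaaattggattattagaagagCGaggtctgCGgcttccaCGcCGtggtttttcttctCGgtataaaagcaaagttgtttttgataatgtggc
Tbx21: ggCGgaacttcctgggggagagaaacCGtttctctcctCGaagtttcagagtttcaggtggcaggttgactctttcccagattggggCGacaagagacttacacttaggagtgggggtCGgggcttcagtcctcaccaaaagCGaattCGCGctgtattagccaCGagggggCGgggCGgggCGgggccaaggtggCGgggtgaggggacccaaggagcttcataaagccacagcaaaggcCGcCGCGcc
Batf3: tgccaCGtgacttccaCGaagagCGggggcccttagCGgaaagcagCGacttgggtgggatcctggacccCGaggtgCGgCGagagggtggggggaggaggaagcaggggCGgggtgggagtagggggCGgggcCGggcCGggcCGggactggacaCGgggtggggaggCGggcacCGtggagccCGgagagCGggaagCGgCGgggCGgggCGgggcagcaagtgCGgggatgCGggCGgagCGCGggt
The Foxp3 window holds 6 CG, the Tbx21 window 16 and the Batf3 window 27, against a median of 6 (quartiles 2 and 16) over one window each for 27025 genes. The letters TTCNNNGAA, the core that Stat factors bind, occur once in the Batf3 window and not in the windows printed for Foxp3 and Tbx21, and 7.18% of all windows hold them on either strand. The window of the second Foxp3 start, not printed, holds these letters once and 7 CG. The AP-1 letters TGANTCA were in none of these 3 windows and in 6.87% of all windows. The deposited values are means over whole gene areas and do not resolve these windows.

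Foxp3, the regulator of regulatory T cells (chromosome X, 7156818 to 7172359 on mm9, as for all gene areas below), had a 5hmC signal of 25.3 in the library labelled iTreg and 30.9 in that labelled Th17. It had 13.0 in Th1, 16.9 in Th2 and 24.2 in naive cells. The sides did not overlap. Th1 and Th2 lay below naive cells, the library labelled iTreg lay close to them and that labelled Th17 above them. The log2 difference was 0.91 ± 0.21, or 1.87-fold, with 2 libraries a side. Here and below, ± gives the moderated SE of limma, which also draws on the spread of all gene areas. With limma across all gene areas the adjusted p was 0.873. The Th17 IgG library had 4.5 at this gene area. Of all gene areas on chromosome X, 17.9% were higher and 13.2% lower, and the part of this in the Foxp3 value was not tested. In such bulk libraries a mark in more cells and more of the mark per cell cannot be told apart.

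Tbx21, which encodes T-bet (chromosome 11, 96959320 to 96976644), showed the opposite order. Its signal was 54.8 in Th1 and 34.9 in Th2, against 20 (labelled iTreg), 18.4 (labelled Th17) and 21.7 in naive cells. The naive value lay close above those of the labelled pair, so both Th1 and Th2 stood apart from the other 3 libraries. The log2 difference was -1.18 ± 0.26, with a limma adjusted p of 0.873, and IgG was at 2.7.

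Il10 (chromosome 1, 132916421 to 132921546) had 29.3 in Th1 and 51.7 in Th2, against 24.2 in the library labelled iTreg, 8.1 in that labelled Th17 and 12.6 in naive cells. Its sides came close to each other, since the values of Th1 and of the library labelled iTreg differed by 1.21-fold. The log2 difference of -1.46 ± 0.61 (limma adjusted p 0.873) was -0.68 without the library labelled Th17 and -2.24 without that labelled iTreg.

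Counted over all gene areas, more were lower than higher, but this excess moved with the scaling. Of the 22875 gene areas 4682 (20.5%) were lower and 2998 (13.1%) higher. With an added side difference of at least 2-fold, 281 (1.23%) were lower and 129 (0.564%) higher. Median-ratio scaling of the libraries shifted the median log2 difference by 0.06, from -0.06 to 0, and gave 4092 lower and 4099 higher gene areas, so the share of higher ones among those without overlap went from 39.0% to 50.04%. Without the library labelled Th17, 7034 were lower and 7813 higher. Statements on lists below are therefore read against the counts over all gene areas under the same setting.

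By limma, 2 gene areas (0.00874%) had an adjusted p under 0.05, and 1200 had an unadjusted p under 0.05, of which 863 were lower in the mean of the labelled pair and 337 higher. Both that passed were predicted genes of very low signal with nearly equal values within each side: Gm9116 had 1.5 and 1.4 in Th1 and Th2 and 0 in the labelled pair, and Gm18797 on chromosome Y had 0 in Th1 and Th2 and 0.2 in the labelled pair. Of the 96 genes named by rule 0 passed. With 2 cell types a side, the test measures spread among cell types and not among replicates, and an exact two-sided permutation test of a single gene cannot give a p below 0.333.

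Low and short gene areas held most of the 2-fold differences. Among gene areas with a mean signal under 8.88, the 25th percentile, 4.95% had a 2-fold difference without overlap, and in 4 bins of higher signal 0.612% to 0.959% did. Above that minimum, 114 gene areas were 2-fold lower and 13 2-fold higher of 17161. Just under the length limit, at 2000 to 3000 bp, the share was 7.01%, just above it, at 3000 to 4000 bp, 6.11%, and over 100000 bp it was 0%. The median difference of each autosome lay between -0.11 and -0.03, and that of chromosome X was 0. The 32 gene areas on chromosome Y had a median signal of 0 in all 4 libraries.

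**Figure D1:**
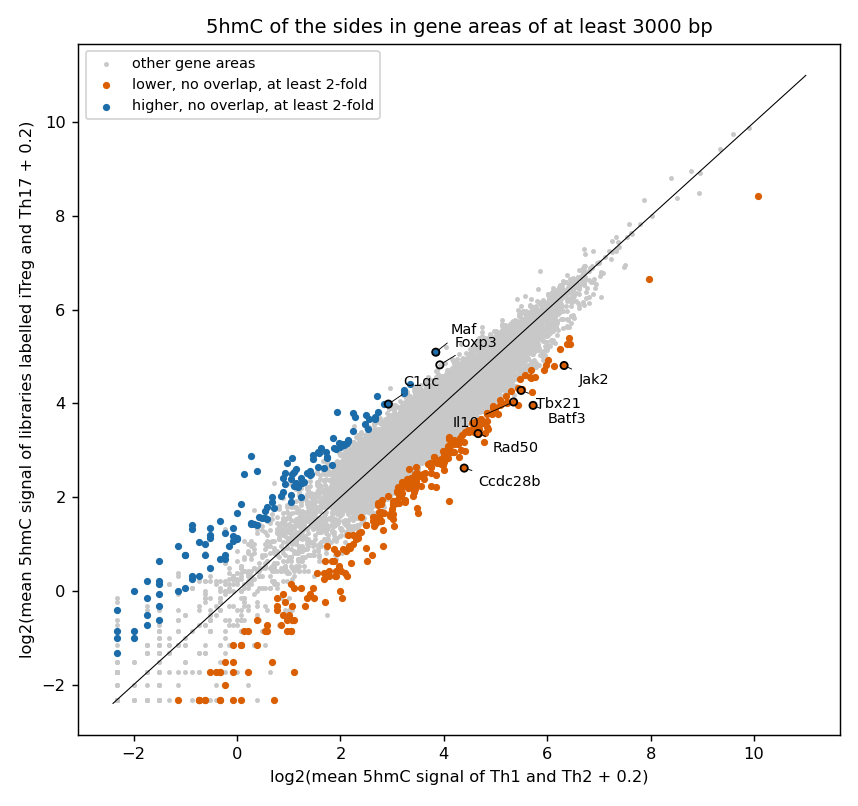
Mean 5hmC signal of the side labelled iTreg and Th17 (y axis) against that of Th1 and Th2 (x axis), both as log2(signal + 0.2), for 22875 gene areas, with the 281 that were at least 2-fold lower without overlap in orange and the 129 that were higher in blue. Many of the coloured gene areas lie at low signal, while Batf3 and Jak2 stand below the line at high signal.

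Among gene areas above this minimum, with a low IgG signal, the widest gaps between the sides were on the lower side, Batf3 and Jak2 among them. Batf3, a basic leucine zipper factor of the AP-1 family (chromosome 1, 192922292 to 192932821), had 49.5 in Th1 and 55.9 in Th2 against 15 in the library labelled iTreg and 15.7 in that labelled Th17, with 13.5 in naive cells and 0.1 with IgG. The libraries of each side were nearly equal, and the labelled pair lay near naive cells. The difference was -1.76 ± 0.14, or 3.40-fold, with a limma adjusted p of 0.324, the lowest among the named genes. Leaving out any 1 of the 4 libraries gave -1.85 to -1.68. Batf3 was named for its gap in these same 4 libraries, so its near-equal sides, p and leave-out values are no independent support.

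Jak2, a kinase that carries signals from cytokine receptors (chromosome 19, 29326317 to 29387569), had 65.1 in Th1 and 94.8 in Th2 against 30.1 and 25.6, with 31.7 in naive cells. As at Batf3, the labelled pair lay near naive cells and Th1 and Th2 above them. Its difference was -1.49 ± 0.24 (limma adjusted p 0.873). Pik3r6, a regulatory subunit of the phosphoinositide 3-kinase gamma, had 52.5 and 56.5 against 27.7 and 27.1, with 26 in naive cells. Zfp334, a zinc finger protein gene, had 27.8 and 35.7 against 14.6 and 13.1, with 13.8 in naive cells.

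At 5 further genes the labelled pair lay below naive cells, and at 4 of them, all but Ccdc28b, Th1 and Th2 also lay above naive cells. Ccdc28b had 21.9 and 19.7 in Th1 and Th2 and 7.3 and 4.6 in the labelled pair, with 36.5 in naive cells. The Polycomb genes Bmi1 and Pcgf5, whose products belong to complexes that silence chromatin, were both among the 14. Bmi1 had 16.5 and 12 against 6.2 and 4.5, with 11.2 in naive cells. Pcgf5 had 38 and 36.1 against 13.7 and 18, with 28.7 in naive cells. Tnrc6a, which takes part in microRNA-mediated silencing, had 30.5 and 30.4 against 15.3 and 11.8, with 24.9 in naive cells. Cd180, a Toll-like receptor relative best known from B cells, had 15.1 and 15.4 against 6.8 and 5.8, with 12.4 in naive cells. The remaining 5 were Snhg4, Rad50, Adh6a, Cnpy2 and Kctd21. Over the 14, naive cells lay between the sides in 8, Th1 and Th2 both lay above naive in 12, and the labelled pair both below naive in 10. The 14 were picked by their gap in these same libraries, so these counts are no independent support. Of all 114 gene areas above the minimum that were 2-fold lower, naive cells lay between the sides in 36.

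**Figure D2:**
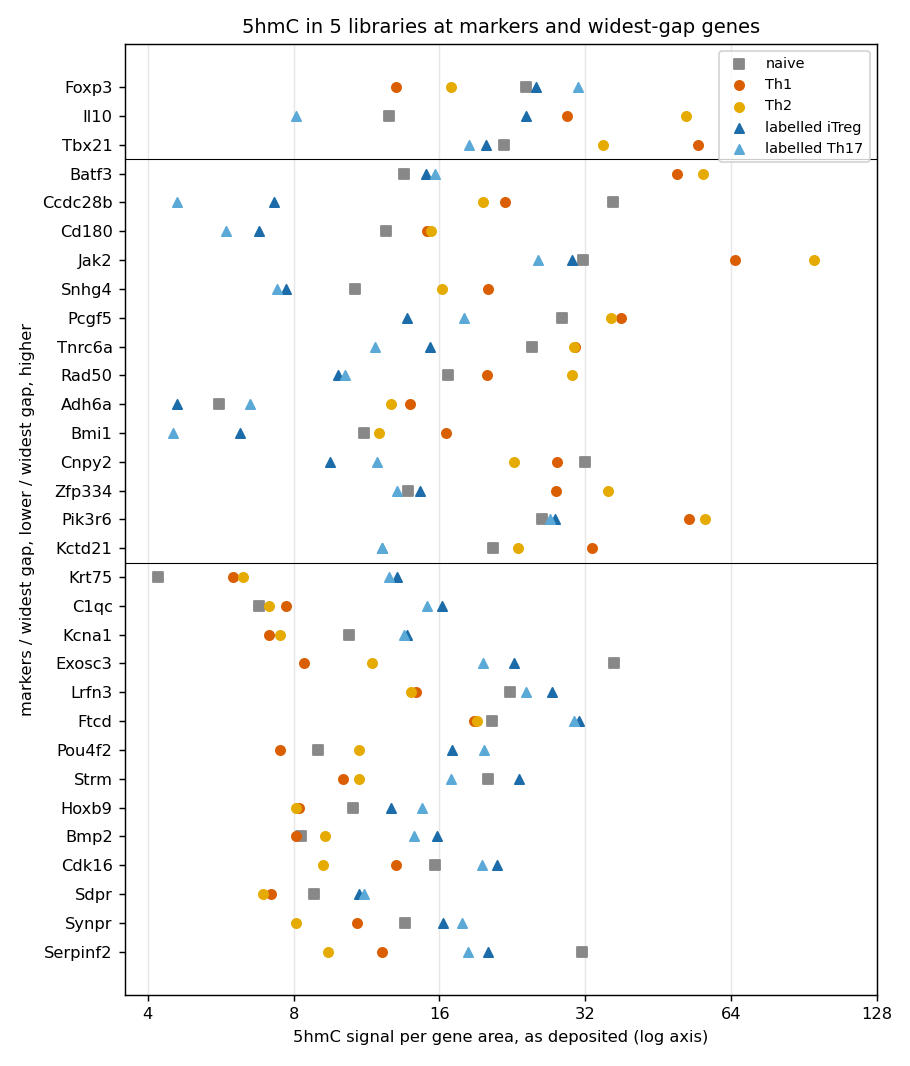
5hmC signal as deposited (x axis, log scale) in the naive, Th1, Th2, labelled iTreg and labelled Th17 libraries, 1 point each, for the 3 markers and the 14 genes with the widest gap in each direction. At Batf3, Jak2, Zfp334 and Pik3r6 the labelled pair sits beside naive cells, and Th1 and Th2 lie well above.

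The genes with the widest gaps on the higher side had smaller gaps, of 1.49- to 1.97-fold against 1.89- to 3.13-fold on the lower side. Krt75, a hair keratin gene, had 6 and 6.3 in Th1 and Th2 against 13.1 and 12.6 in the labelled pair, with 4.2 in naive cells. C1qc, a chain of the complement component C1q, had 7.7 and 7.1 against 16.2 and 15.1, with 6.8 in naive cells. Its difference was 1.06 ± 0.22 (limma adjusted p 0.873). At both genes Th1 and Th2 lay near naive cells and the labelled pair above them.

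Kcna1, a potassium channel gene, had 7.1 and 7.5 against 13.7 and 13.5, with 10.4 in naive cells. Pou4f2, a factor of retinal neurons, had 7.5 and 10.9 against 17 and 19.8, with 9 in naive cells. Bmp2, a ligand of the TGF-beta superfamily, had 8.1 and 9.3 against 15.8 and 14.2, with 8.3 in naive cells. Exosc3, a subunit of the RNA exosome, had 8.4 and 11.6 against 22.8 and 19.7, all below its 36.7 in naive cells, and Serpinf2, an inhibitor of plasmin, had the same order, with 12.2 and 9.4 against 20.2 and 18.3 and 31.5 in naive cells. Cdk16 on chromosome X had 13 and 9.2 against 21 and 19.6, with 15.7 in naive cells. The others were Lrfn3, Ftcd, Strm, Hoxb9, Sdpr and Synpr. Over these 14 genes, also picked by their gap, naive cells lay between the sides in 7. Of all 13 gene areas above the minimum that were 2-fold higher, naive cells lay between the sides in 2. Th17 IgG was 0.1 to 3.4 at them.

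The lists of Th1 and Th2 genes held larger shares of lower members, 52.2% and 56.5%, than the 20.5% of all gene areas. Of 23 measured genes of Th1 cells 12 were lower and 1 higher, with a median difference of -0.40, beside a median of -0.06 over all gene areas. Of 23 genes of Th2 cells 13 were lower and 3 higher, with a median of -0.64. None of these members had an adjusted p under 0.05 by limma. Without the library labelled Th17, 12 Th1 genes were lower and 6 higher and 15 Th2 genes lower and 5 higher, beside 30.7% lower and 34.2% higher over all gene areas in that setting.

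Besides Tbx21, the Th1 gene with the widest gap was Bhlhe40, a basic helix-loop-helix repressor, with 53.1 and 75.3 against 37 and 37.5. Hlx, a homeobox factor that acts with T-bet, went the other way, with 9.7 and 7.4 against 13.5 and 12.3. In the Th2 list Gfi1, a zinc finger repressor that favours Th2 growth, had 34.1 and 44 against 21 and 16.8. Maf, a factor of Th2, Th17 and Il10-producing cells, was the Th2 and Th17 gene with the widest gap on the higher side. It had 12.5 in Th1 and 15.8 in Th2 against 46.4 (labelled iTreg) and 21.5 (labelled Th17), with 18 in naive cells. Its difference of 1.16 ± 0.41 was 0.61 without the library labelled iTreg.

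Gata3 showed no order by side: it had 40.1 in Th1 and 75.2 in Th2, against 194.9 in the library labelled iTreg and 30.4 in that labelled Th17. The Th17 IgG library had 15.1 at Gata3, against its median of 1 over all gene areas. The side difference of Gata3, 0.49, turned to -0.85 without the library labelled iTreg.

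Neighbouring genes of 3 cytokine loci were lower side by side, and those of the Il17 locus were not. The counts of these 4 loci stand beside 20.5% lower and 13.1% higher over all gene areas. In the Th2 cytokine locus on chromosome 11, 4 of 6 measured members were lower and 0 higher (limma: none with an adjusted p under 0.05). All 6 lay below 0, as did 13110 of all 22875 gene areas. Rad50, a DNA repair gene whose introns hold the locus control region of the Th2 cytokines, had 20.1 and 30.1 against 9.9 and 10.2, with 16.7 in naive cells. Il5 had 25.2 and 40.6 against 16 and 11.1, and Il13 had 38.8 and 69 against 22.1 and 24.7. These 3 lie side by side, from 53444824 to 53538604, and differed by -1.27, -1.25 and -1.14, the last being -0.73 without Th2. Th1 cells, which are not known for these cytokines, lay above the labelled pair at all 3. Il4 stood apart from its neighbours: it had 82.6 in Th2 but 22.6 in Th1, within the 20.2 and 26.2 of the labelled pair, and its difference of -0.90 was 0.026 without Th2.

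In the Ifng locus on chromosome 10, 4 of 4 measured members were lower, beside 20.5% of all gene areas. Ifng had 22.6 in Th1 and 14.3 in Th2 against 14 and 8.9, so Th2 and the library labelled iTreg differed by 1.02-fold only. Il22, an interleukin gene of the same locus, had a wider gap, with 25 and 24 against 17.6 and 16.1 and 10 in naive cells. Under median-ratio scaling 3 of 4 members were lower, beside 4092 of all 22875 gene areas.

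In the Il10 cluster 6 of 9 members were lower and 0 higher, beside 20.5% and 13.1% of all gene areas. Its median difference was -0.39. Il19, a cytokine of the Il10 family, had 14 and 12.5 against 9.5 and 8.5, and Il24 had 26.7 and 37.6 against 22.2 and 16.1. Under median-ratio scaling 5 of 9 were lower and 1 higher, beside 4092 and 4099 of all 22875 gene areas. The Il17 locus had 0 lower and 0 higher of 5. Il17a had 10.8 and 4.3 in Th1 and Th2, 31.3 in the library labelled iTreg and 8.8 in that labelled Th17, and Il17f had 10.4, 13, 32.8 and 5.3.

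Around the markers, gene areas of any length were read for whether neighbours differed in the same direction. Over all 37544 gene areas of any length, 19.4% were lower and 13.7% higher. The counts below include the marker itself. Within 200 kb of Foxp3, 5 of 22 gene areas were higher and 2 lower. The higher ones next to it, 4930524L23Rik and Ccdc22 with log2 differences of 0.78 and 0.43, overlap the ends of the Foxp3 gene area. They share its signal there, but most of each lies outside it. Ppp1r3f and Cacna1f, the nearest that do not overlap it, had 0.16 and 0.06, and the others that were higher, Gm14703 and Gm6079, had 0.49 and 0.78. Within 200 kb of Tbx21, 6 of 17 were lower and 1 higher. Its neighbour Tbkbp1, which encodes an adaptor of the kinase TBK1, had 65.3 in Th1, 36.4 in Th2, 29.3 and 24.5 in the labelled pair and 32.3 in naive cells. Osbpl7 on the other flank had 0.01. Within 200 kb of Il10, 5 of 12 were lower and 0 higher. Gene areas that overlap share reads and are not independent.

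**Figure D3:**
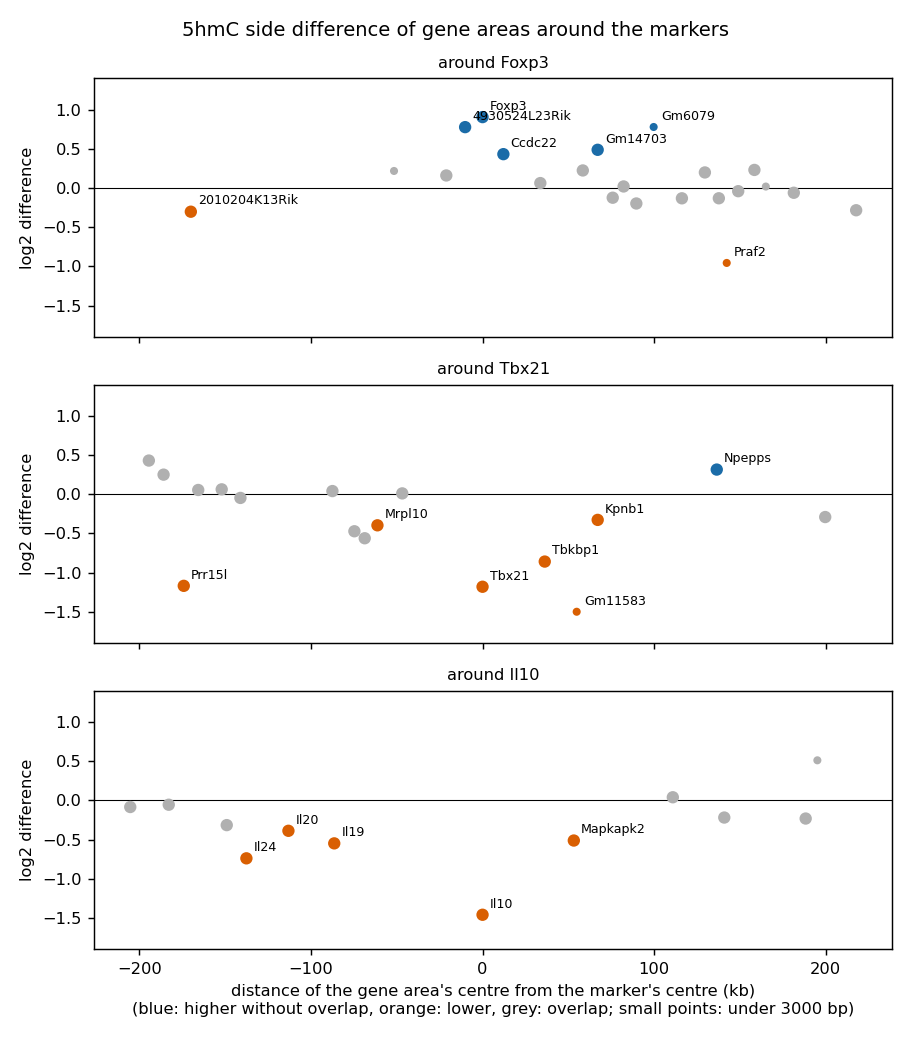
Log2 difference in 5hmC (y axis, labelled iTreg and Th17 minus Th1 and Th2) of each gene area within 200 kb of Foxp3, Tbx21 and Il10, against the distance of its centre from the marker's centre (x axis, kb). Foxp3 and the gene areas that overlap it stand above 0, Tbx21 and Tbkbp1 below 0, and 5 gene areas of the Il10 panel are lower.

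Genes that mark the labelled cells themselves were not higher as a group with all 4 libraries. Of 22 measured iTreg genes 8 were lower and 2 higher, Foxp3 and Nt5e, which encodes the ectoenzyme CD73 and had 12.4 and 19.6 against 33.4 and 24.3. The lower ones included Tnfrsf9, a costimulatory receptor of activated T cells, with 48.8 and 65.2 against 28.2 and 28.1, and Ebi3, a cytokine subunit, with 35.6 and 40.6 against 23.5 and 21.6. Il2ra, the alpha chain of the interleukin 2 receptor, had 66.3 and 70.5 against 48.6 and 55.4. Ctla4 overlapped between the sides, with 27.1 and 41 against 35 and 20.4. Of 24 Th17 genes 8 were lower and 1 higher. For both lists the shares over all gene areas were 20.5% lower and 13.1% higher. Without the library labelled Th17, 8 of the 24 Th17 genes were lower and 11 higher, and 8 of the 22 iTreg genes lower and 5 higher. In that setting 30.7% of all gene areas were lower and 34.2% higher. Without that labelled iTreg, 19 Th17 genes were lower and 1 higher, and 16 iTreg genes lower and 3 higher, beside 47.3% and 24.1%. Nfkbiz, a nuclear regulator of Th17 genes, had 26.4 and 24.3 against 15.8 and 12.6.

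The TGF-beta pathway had few members that differed without overlap. Of 42 measured members 5 were lower and 2 higher, shares of 11.9% and 4.76%, both below those of all gene areas. The median was -0.07, and 0 to 2 decimals under median-ratio scaling. Without the library labelled Th17, 7 were lower and 15 higher, beside 30.7% and 34.2% of all gene areas. Without the library labelled iTreg, 26 were lower and 4 higher, beside 47.3% and 24.1% of all gene areas. Tgfb1, the ligand, had 70.7 and 73.8 in Th1 and Th2 and 71.2 and 63.5 in the labelled pair. Among signal carriers, Smad3 had 33.1 and 47.7 against 37.2 and 24.1, and Smad1, which serves bone morphogenetic proteins, had 11 and 10.5 against 12.5 and 11.7. Smad7, the inhibitory Smad, had 38.1 and 39.8 against 44.2 and 35, after 114.5 in naive cells. Acvr1, a type I receptor of the superfamily, was higher, with 61.1 and 68.1 against 80.5 and 81.4 and 45.7 in naive cells. Inhba, a subunit of activin, was lower, with 19.9 and 22.4 against 15.9 and 13.8, as was the corepressor Tgif1, with 24.5 and 33 against 22.1 and 20.9.

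Lists of transcription control, signalling and surface receptor genes held larger shares of lower members than all gene areas. Over all gene areas 20.5% were lower and 13.1% higher. Of 37 helper T transcription factors 18 were lower and 3 higher, of 20 Stat, Jak and Socs genes 8 and 0, of 44 cytokine receptors 18 and 3, and of 16 inhibitory and costimulatory receptors 9 and 0. Their medians were -0.31, -0.39, -0.20 and -0.54. Without the library labelled Th17 the counts were 18 and 9, 8 and 2, 20 and 11, and 9 and 1. Over all gene areas 30.7% were lower and 34.2% higher in that setting. Pias3, an inhibitor of Stat3, had 11.9 and 14.2 against 7.4 and 6.5. Il10ra, the ligand-binding chain of the interleukin 10 receptor, had 49.4 and 53.4 against 32.7 and 19.4, with 49.4 in naive cells. Il2rg, the shared gamma chain of several receptors, had 19.9 and 22.1 against 13.9 and 12.1, with 41.3 in naive cells. Cd200, the ligand of an inhibitory receptor, had 35.7 and 37.3 against 23.4 and 19.3. Il22ra1 was among the higher ones, with 28.4 and 36.7 against 48.4 and 43.3.

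Housekeeping and cell cycle genes, fixed as lists of common cell functions, also held lower members. Their shares were 37.5% and 32%, beside 20.5% of all gene areas. Of 16 housekeeping genes 6 were lower and 1 higher, with Gapdh at 57.4 and 69.4 against 37.8 and 32.8, and of 25 cell cycle genes 8 were lower and 3 higher. Of 21 naive T cell genes 7 were lower and 0 higher. Ccr7, the homing receptor of naive cells, had 65.1 and 66.9 against 45.7 and 28.4, after 147.1 in naive cells. Without the library labelled Th17 these lists had 6 lower and 6 higher, 8 and 10, and 8 and 7. In that setting 30.7% of all gene areas were lower and 34.2% higher. Of 22 Tet and Dnmt genes and their partners 3 were lower and 3 higher, or 13.6% each way, beside 20.5% and 13.1% of all gene areas. The lower ones included Tet2 with 26.3 and 25.8 against 20.8 and 21.3. Dnmt3a, a methyltransferase that sets new methylation, was also lower, with 26.4 and 42.5 against 20.9 and 18.8. The higher ones included Smug1, a DNA glycosylase, with 14.3 and 15 against 18.8 and 16.7, and the methyltransferase Dnmt3b, with 215.8 and 252.4 against 339.7 and 308.6. At Dnmt3b the Th17 IgG library had 326.1, within the range of the labelled pair, and at Smug1 it had 5.3. Of T cell receptor signalling genes 8 of 33 were lower and 1 higher, of cytokines 15 of 35 and 1, of chemokine receptors and trafficking genes 5 of 22 and 1, and of retinoic acid and aryl hydrocarbon receptor genes 2 of 17 and 3. Their lower shares were 24.2%, 42.9%, 22.7% and 11.8%. All of these, and the lists of other cells that follow, stand beside 20.5% lower and 13.1% higher over all gene areas. For markers of other cells, the counts were 0 of 9 lower and 3 higher for B cells, 0 of 8 and 0 for myeloid cells, 2 of 11 and 1 for CD8 T and NK cells, and 1 of 8 and 1 for erythroid cells. The summed signal of the B cell markers was 276.7 and 280.4 in Th1 and Th2 and 291.1 and 268.7 in the labelled pair, and that of the myeloid markers 140.4 and 154.1 against 152.7 and 158.4. No measured member of these 4 marker lists was at 0 in any of the 4 libraries.

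**Figure D4:**
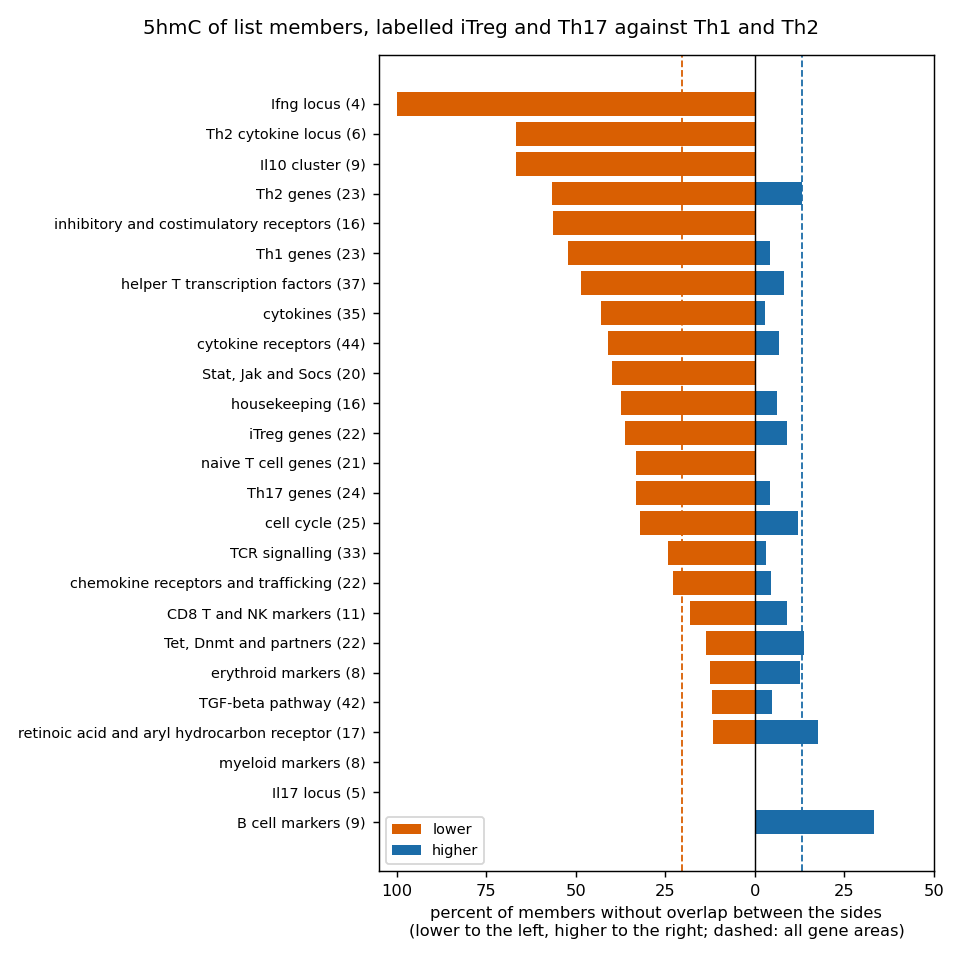
Percent of the measured members of each of 25 gene lists (number in brackets) that were lower (orange, left) or higher (blue, right) in 5hmC without overlap, with dashed lines at the 20.5% and 13.1% of all gene areas. The Ifng locus, the Th2 cytokine locus and the Il10 cluster reach farthest left. The Il17 locus and the myeloid markers have no bar. The TGF-beta pathway stays inside both lines, as do the erythroid and the CD8 T and NK markers.

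The 5mC libraries of the same cell types were compared in the same way. Their median signal was 0.7 to 0.8, below the 1 of Th17 IgG and the 1.8 of input, with the scaling between libraries not stated. By limma 88 of 22875 gene areas (0.385%) had an adjusted p under 0.05. All 88 had equal values within both sides, which rounding to 1 decimal produces at low signal, and 0 of the gene areas above the 25th percentile of 5mC passed, with 1805 at an unadjusted p under 0.05. Gm9116 was among the 88, in the same direction as its 5hmC, with 0.1 in Th1 and Th2 and 0 in the labelled pair. At Foxp3 5mC was 1.2 in Th1 and 0.7 in Th2 against 0.8 and 0.9, and at Tbx21 1.1 and 0.9 against 1 and 1. Batf3 had 0.8 and 1.5 against 1.1 and 0.9. Input was at 2.2, 2.2 and 2.3 at these genes, above all of these 5mC values. At the 14 genes lowest in 5hmC by gap the 5mC differences lay between -0.55 and -0.03, with a lowest adjusted p of 0.442 by limma, beside a median of -0.13 over all gene areas.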

How the data were processed

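The deposited signal values are the authors' means per gene area, 1 table for all 12 libraries; CASAVA 1.7.0 and mouse build mm9 are named, per the submitters' processing notes. Alignment, counting and scaling are not stated there, so the depth behind each value is unknown. Columns were matched by the sample number in the titles, and 0 were left unused. Repeated symbols were reduced to the row of highest mean (208 rows left out), and 22875 gene areas of at least 3000 bp were kept. Sides were compared with limma 3.58.1 (trend, Benjamini-Hochberg adjustment; R 4.3.3) on log2(signal + 0.2), checked on simulated libraries; a call needed an adjusted p under 0.05. Python 3.11.15 and pandas 2.3.3 were used otherwise. Members and lists were chosen with earlier results of these data known. Genes were named by rule: the 3 markers, 13 set genes (1 of them not reported here), the 14 widest gaps each way (gene areas above the 25th percentile of mean signal, IgG under 0.5 of the lowest value of the higher side, without predicted genes, chemosensory receptors, small RNAs, pseudogenes and antigen receptor segments) and at most 2 list members each way. Neighbours of the markers are described beside them. Alternatives were scaling, pseudocount, filters, limma without trend and leaving out libraries.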

Additional observations from a re-analysis of the deposited data

How the results depend on the processing

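Calls were few under each setting and depended on low gene areas. For 5hmC, limma gave 1 call with a pseudocount of 1, 1 on autosomes only, 8 in gene areas of any length, 0 above the 25th percentile of signal (1133 at an unadjusted p under 0.05) and 0 without trend (1323). Leaving out the Th1, Th2, labelled iTreg or labelled Th17 library gave 31, 34, 22 and 31 calls, where the lone library of a side is assumed to vary like the others. Without a library, lower gene areas numbered 7034 to 10814 and higher ones 5511 to 7813, since fewer values need to be in order; 2-fold lower ones numbered 363 to 1081 and 2-fold higher ones 265 to 328. In gene areas of any length 7293 were lower and 5128 higher, 1236 and 844 of them 2-fold. The 2-fold counts, lower and higher, were 159 and 43 with a pseudocount of 1, 114 and 13 above the 25th percentile, and 92 and 39 at 10000 bp or more. For 5mC, median-ratio scaling gave 32 calls and the filter 0. Of 96 named genes, 5 changed sign in one or more of 669 recomputed values, each time without 1 library: Ctla4 (-0.70 to 0.070, reversed without that labelled Th17), Gata3 (-0.85 to 1.82) and Il17f (-1.10 to 1.48), both reversed without that labelled iTreg, Il4 (-1.84 to 0.026, reversed without Th2) and Smad7 (-0.15 to 0.18, reversed without that labelled iTreg and, at -0.02, without Th1). None of the 669 passed the threshold, and the lowest adjusted p was 0.110. Counts for the lists without the library labelled iTreg were 19 lower of 23 for Th1 genes, 17 of 23 for Th2 genes and 26 of 42 for the TGF-beta pathway, beside 47.3% of all gene areas; settings for the lists were chosen after seeing the data. No paired analysis was possible because the labels give no replicate numbers.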

Other observations

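Runs of neighbouring gene areas were looked for after the values were seen, with no test. More were found on the lower side, where more gene areas met the criteria below, so the numbers of runs alone do not show clustering. The excess of lower gene areas moved with the scaling, as given above. Of the gene areas that were lower without overlap by at least 1.5-fold, 93 lay in 30 runs of 3 or more consecutive ones, against 21 in 7 runs on the higher side, where 1384 lower and 581 higher gene areas met these criteria in all. Some neighbours overlap and share reads. The longest run had 5 gene areas on chromosome 15, from Naprt1, an enzyme of NAD synthesis, through Eef1d, Tigd5 and Pycrl to Tsta3 (75721393 to 75760159). Eef1d, a translation elongation factor subunit, had 14.3 in both Th1 and Th2 against 8.7 and 4.2 in the labelled pair, and Tsta3 had 15.6 and 13.3 against 6.2 and 7.2. Jak2 lay in a run with Rcl1 and Insl6 (29175864 to 29399807 on chromosome 19), and Bmi1 in one with Commd3 and Gm8656.

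Irf3, a factor that switches on type I interferon genes, had one of the larger differences among gene areas of moderate signal and lay beside Bcl2l12 on chromosome 7. It had 37.7 in Th1 and 48.9 in Th2. The library labelled iTreg had 27.6 but that labelled Th17 3.2, with 32.2 in naive cells and 2.0 with IgG. Bcl2l12 had 25, 22.9, 17.1 and 4.9. At both genes the difference between the sides came mostly from the library labelled Th17. They were chosen after their values were seen.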
